A study of Mus musculus with 11 samples.

Results

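Plasmacytoid dendritic cells were looked for in single-cell RNA-seq data of adrenal neuroblastoma tumors from 11 mice, and 63 cells were selected of 73170 kept cells. The mice carried Dbh-iCre and LSL-MYCN on the 129X1/SvJ background, a GEMM in which Cre, driven by the Dbh promoter of noradrenergic cells, switches on MYCN. All tumors carried both alleles. Cisplatin was given to 6 mice as a single dose of 2 mg/kg, and 5 mice were given vehicle, which the treatment label names DMSO for vehicle mice 1 and 2 and vehicle for the other 3. Tumors were taken 24 h later and 1 library was made per mouse, in which a unique molecular identifier (UMI) marks each captured transcript. A cell was selected when it had at least 2 UMIs of Siglech, at least 3 UMIs of Irf8, Bst2, Ly6d and Cox6a2 together, and at most 1 UMI each of Cd79a (B cells), Cd3e (T cells) and the sum of C1qa, C1qb and C1qc (macrophages). These counts chose the cells, so the levels of the genes in these cells against other cells are given below as a description, with no test. Levels are CPM, the UMIs of a gene per 1000000 UMIs summed over a set of cells. The 3′ kit counts a transcript once whatever its length.

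Plasmacytoid dendritic cells are rare white blood cells that sense viral and self nucleic acids in endosomes, chiefly through TLR7 and TLR9, and are known for releasing large amounts of type I interferon. They develop from bone marrow precursors, some of them with lymphoid features, under the transcription factors E2-2 (Tcf4) and Irf8, and have a round, plasma cell-like shape with a large secretory apparatus. In tumors they have been described in poorly responsive as well as in activated states.

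The 5 selection genes are markers of this cell type in the mouse. Siglech (GRCm38 chr7:55768178-55778925, plus strand) encodes the sialic acid-binding receptor by which the cells are recognised. Irf8 (chr8:120736358-120756694, plus strand) encodes an interferon regulatory factor, and Bst2 (chr8:71534255-71537456, minus strand) encodes tetherin, the antigen of the pDC antibody PDCA-1. Ly6d (chr15:74762056-74763620, minus strand) encodes a surface protein of lymphoid precursors that is also made in stratified epithelium. Cox6a2 (chr7:128205435-128206387, minus strand) encodes a subunit of cytochrome c oxidase known from muscle.

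The label was checked against 26 further pDC markers that the selection did not use and against markers of tumor cells, and 15 of the 63 cells were set apart, 14 by their tumor marker level and 1 by the pDC markers. In 13 of the 19 cells of cisplatin mouse 4 and 1 of the 2 cells of vehicle mouse 4, the share of UMIs from 11 tumor markers (among them Th, Dbh, Ddc, Chga, Chgb and Stmn2) was above 50% of the median in the tumor cells of the same mouse. The cell of vehicle mouse 4 lay next to this limit, at 1034 CPM from 6 tumor marker UMIs against 1012, and had 13 of the 26 markers, more than the 7 of the core cell of the same mouse. The cell of cisplatin mouse 2 had 1 of the 26 markers. Its Siglech count was 2 and Irf8, Bst2, Cox6a2 and Tcf4 were at 0, whereas Ly6d had 40 UMIs and the keratins Krt5 and Krt14, of stratified epithelium, had 49 and 86. The other 48 cells are called core cells here. They had at least 3 of the 26 markers and a tumor marker share at or below that limit, a split made after the values had been seen, and counts are given for all selected cells and for core cells. In the core cells 7 to 23 of the 26 markers were detected (median 17), against 1 to 13 (median 9) in the other 15.

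**Figure D1:**
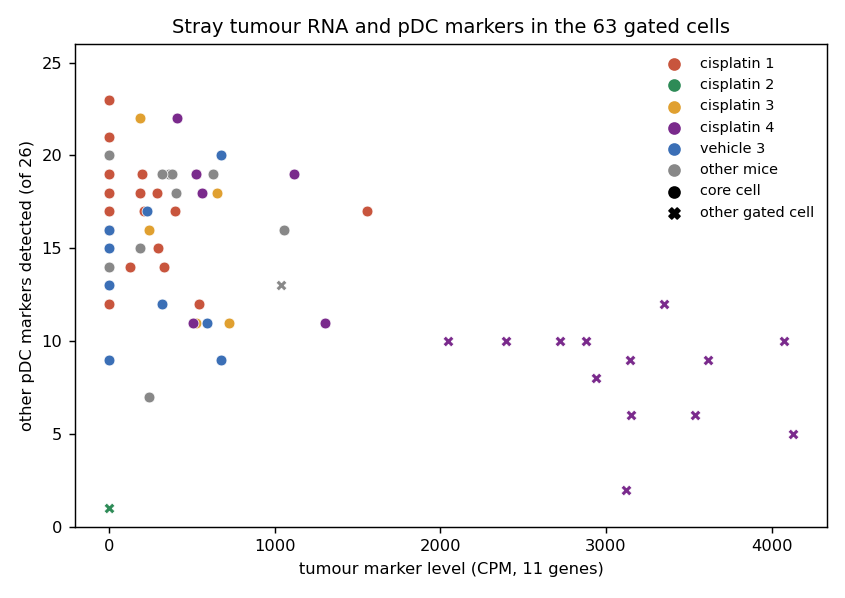
Each of the 63 selected cells by its tumor marker level (x axis, CPM over 11 genes) and the number of 26 further pDC markers detected (y axis). Circles are core cells and crosses the other 15 cells, with color by mouse. The 13 crosses of cisplatin mouse 4 lie at 2045 to 4131 on the x axis and at 2 to 12 markers.

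Tumor RNA in the selected cells differed between mice. The 11 tumor markers summed to 217 CPM in cisplatin mouse 1, 399 in cisplatin mouse 3 and 235 in vehicle mouse 3, and to 2398 in cisplatin mouse 4. In the remaining 7 mice, each with 1 to 3 cells, they lay between 0 and 1052 CPM. The 13 cells of cisplatin mouse 4 outside the core had 3221 CPM, next to 3236 in the tumor cells of that mouse, and its 6 core cells had 862 CPM. Counted with no limit on Siglech, more than 1 of the tumor cells carried Siglech in this mouse alone, 24 of 5702 (0.421%), with a median of 6383 UMIs per tumor cell. No Siglech UMI was found in the tumor cells of 9 mice, and 1 of 2249 tumor cells of vehicle mouse 3 had it. Over the 48 core cells Dbh and Ddc were at 0 UMIs, and the tumor marker found most often, Stmn2, was in 25 cells. Whether the 14 cells above the tumor marker limit are pDCs together with tumor RNA, or tumor cells together with pDC RNA, was not tested. The cell of cisplatin mouse 2 had 0 tumor marker UMIs.

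Cells of the other types in the same mice are the background for these levels. In cisplatin mouse 1 the tumor markers summed to 2738 CPM in B cells, 2435 in T cells and 1498 in macrophages, all above the 217 in pDCs. The medians per cell were closer, at 570, 464 and 181 against 192 CPM. In vehicle mouse 3 the medians of B cells, T cells and macrophages were 0, against 229 in its 9 pDCs. The hemoglobin genes Hba-a1, Hba-a2, Hbb-bs and Hbb-bt, of red cells, summed to 129239 CPM in the core cells of cisplatin mouse 4, to 41333 over all kept cells of that mouse, and to at most 2165 in the core cells of any other mouse. A single core cell of cisplatin mouse 4, with 18448 of the 46418 UMIs of its 6 core cells, held 5544 of their 5999 hemoglobin UMIs and 24 of their 40 tumor marker UMIs. Without it the hemoglobin genes were at 16267 CPM and the tumor markers at 572.

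The comparison cells of cisplatin mouse 4 carried few of their own markers. The macrophage markers summed to 1000 CPM in its 1631 macrophages, against 11403 in the 1409 of cisplatin mouse 1. The median tumor marker level per cell was 2623 CPM in these macrophages, near the 3204 of its tumor cells. Its 30 B cells had 1461 CPM of B cell markers, against 4747 in cisplatin mouse 1. Levels in other cell types are therefore given for cisplatin mouse 1 alone where no other mice are named, a choice made after the values were seen. The B cells, T cells and macrophages of cisplatin mouse 1 held tumor RNA as well. Their tumor markers were at 2738, 2435 and 1498 CPM, against 6077 in its tumor cells. Tumor RNA in a sum lowers the CPM of the cells' own genes, so contrasts with these cells include this dilution.

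Next to the thresholds, 12 cells were selected with exactly 2 Siglech UMIs, 9 of them from cisplatin mouse 4, with a median of 9 of the 26 markers. The 14 cells with 1 Siglech UMI that met the other limits, 10 of them from cisplatin mouse 4, had a median of 8. A single selected cell had exactly 3 UMIs of the 4 other genes and a single cell outside had 2. A further 12 cells were left out by the limits on Cd79a, Cd3e and the C1q genes alone. Of 72482 distinct barcodes of kept cells, 686 occurred in more than 1 library, and none of the 63 selected cells had such a barcode.

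The depth of the selected cells was low for the libraries. The core cells had 1030 to 18448 UMIs (median 4757) and 633 to 4192 genes (median 1854.5), and together 227664 UMIs and 10535 detected genes. Over all kept cells the median was 5708 to 34895 UMIs per cell in the 11 mice, and the median of the core cells was lower than that in 9 of the 10 mice that had core cells. Ptprc, the pan-leukocyte antigen CD45, was detected in 43 of the 48 core cells and in 4 of the other 15.

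All core cells had Siglech and Irf8, and 46, 42 and 46 of the 48 had Bst2, Ly6d and Cox6a2. Siglech was at 1911, 1706, 2412, 963 and 953 CPM in the core cells of vehicle mice 1 to 5. In the cisplatin-treated mice it was at 2220, 2507, 905, 1684 and 1386 CPM in mice 1, 3, 4, 5 and 6, and cisplatin mouse 2 had no core cell. The groups overlapped, and the lowest levels were those of cisplatin mouse 4 and of vehicle mice 4 and 5, which had 1 core cell each. Without the deepest core cell of cisplatin mouse 4, Siglech was at 1430 CPM in that mouse and Irf8 at 1466. Irf8 was at 2747, 3285, 2245, 723 and 2224 CPM in the vehicle-treated mice and at 2509, 2906, 905, 1684 and 2338 in the cisplatin-treated mice. Bst2 was the highest of the 5 genes, at 3488 CPM over all core cells, with 5260 in vehicle mouse 3. Ly6d was the most uneven between cells, from 0 to 48 UMIs with a median of 8. The cells of the other types were selected with Siglech at 0, so its level in them is no result. Among Irf8, Bst2, Ly6d and Cox6a2, only Ly6d had a high level in another cell type, 978 CPM in B cells. The level of Bst2 in macrophages was 217 CPM.

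**Figure D2:**
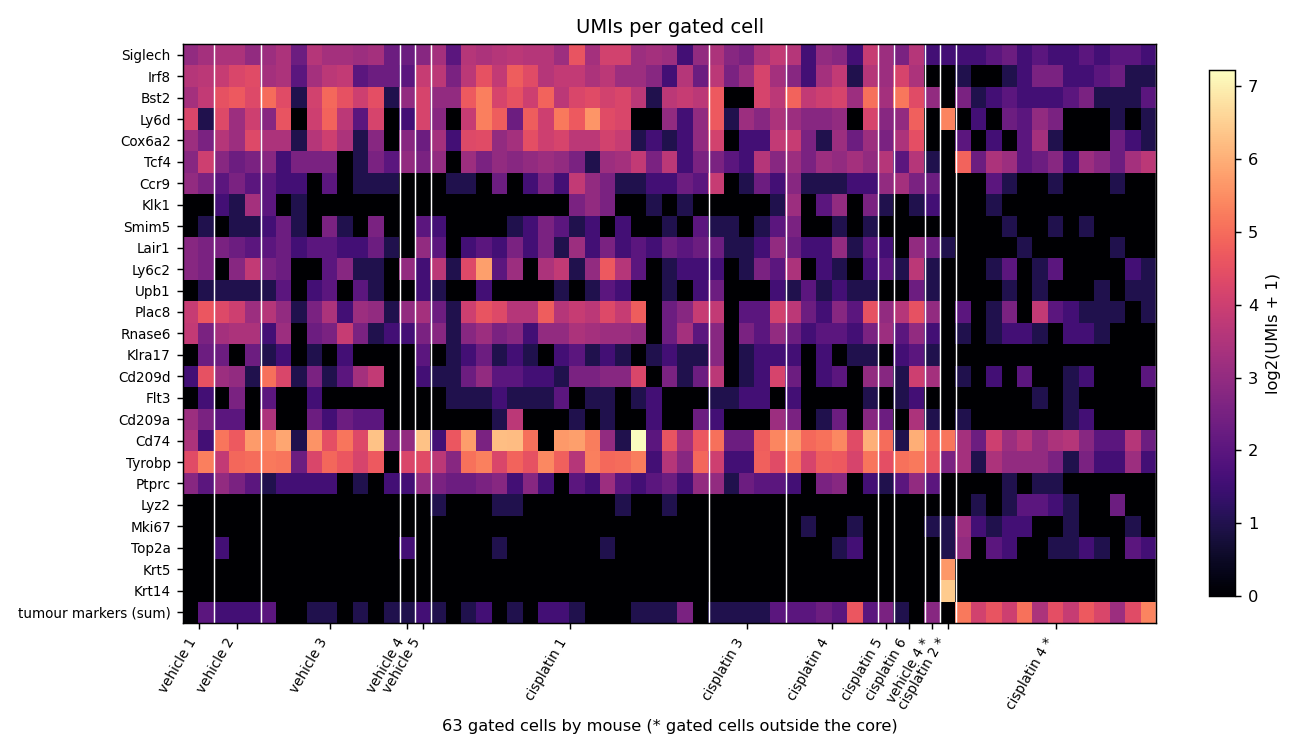
UMIs per selected cell on a log2 scale (color, log2 of UMIs + 1) for selection genes, further markers, other cell types' genes and the sum of the 11 tumor markers (rows), with 1 column per cell grouped by mouse. The 15 columns marked with an asterisk are outside the core. The cell of cisplatin mouse 2 shows Krt5 and Krt14, and the 13 cells of cisplatin mouse 4 show tumor markers.

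The first comparison asked whether pDCs made up a different share of the tumors after cisplatin. The share of kept cells was 0.0345%, 0.0451%, 0.272%, 0.0254% and 0.0194% in vehicle mice 1 to 5, from 2, 3, 9, 2 and 1 cells. In cisplatin mice 1 to 6 it was 0.244%, 0.0704%, 0.0621%, 0.114%, 0.0174% and 0.0385%, from 18, 1, 5, 19, 1 and 2 cells. Vehicle mouse 3 and cisplatin mouse 1 were the highest of their groups, and the groups overlapped over nearly their whole range. The 95% Wilson interval was 0.143% to 0.516% for vehicle mouse 3 and 0.155% to 0.386% for cisplatin mouse 1, and covers counting error only. The mean share was 0.0911% ± 0.0818 (SD, n = 6) with cisplatin and 0.0793% ± 0.108 (SD, n = 5) with vehicle, a difference of 0.0118 percentage points that was smaller than the spread between mice (two-sided exact permutation test, p = 0.732).

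The direction of this difference rested on single mice and on the denominator. Over core cells alone the mean was 0.0664% ± 0.0896 with cisplatin (n = 6) and 0.0768% ± 0.110 with vehicle (n = 5), with a difference of -0.0104 percentage points (exact permutation p = 0.797). No core cell was found among the 1421 kept cells of cisplatin mouse 2, which allows a share of up to 0.211% by a limit of 3 counts and of 0.270% by the upper 95% Wilson bound. Among cells with a Ptprc UMI, of which there were 95 to 2154 per mouse, selected cells made up 0.843% ± 0.539 with cisplatin (n = 6) and 1.70% ± 1.25 with vehicle (n = 5), with p = 0.139 by the same exact test. Without vehicle mouse 3 the cisplatin mean was higher by 0.0600 percentage points (exact permutation p = 0.105). Within the 9 mice of software version 4.0.0 it was higher by 0.0611 (exact permutation p = 0.167), and version 3.1.0 held vehicle mice 1 and 3 only.

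**Figure D3:**
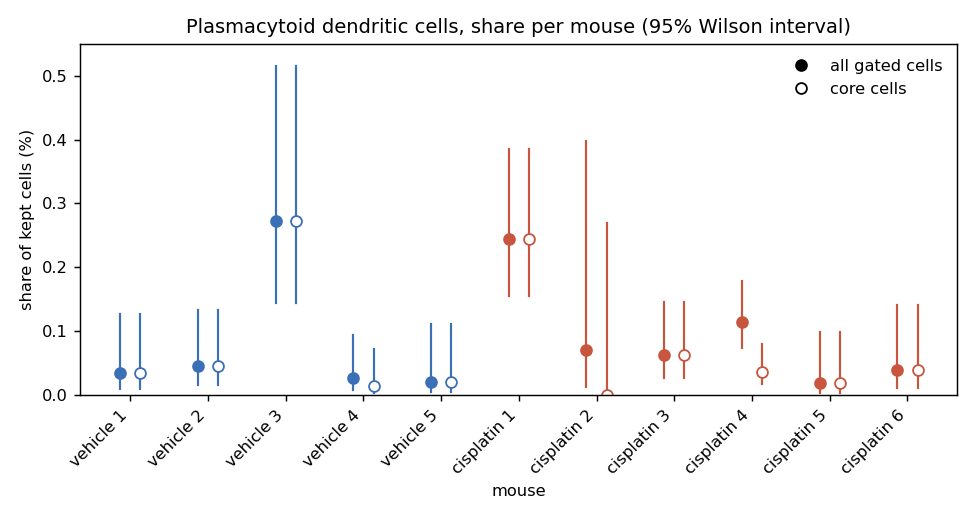
Share of kept cells that were selected as pDCs in each mouse (y axis, percent), with 95% Wilson intervals. Filled points are all selected cells and open points core cells, blue for vehicle and red for cisplatin. Vehicle mouse 3 (0.272%) and cisplatin mouse 1 (0.244%) stand above the others, and core cells of cisplatin mouse 4 are at 0.0361%.

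All of the 26 further pDC markers were detected in the core cells, 20 of them in at least 50% of the cells. In cisplatin mouse 1, 25 of the 26 were higher in core cells than in B cells, T cells, macrophages and tumor cells alike, beside 42.5% of the 7865 genes detected there. The exception was Tlr9, at 0 in its core cells. As a mean of the 2 mice with at least 10 selected cells, cisplatin mice 1 and 4, it was 24 of 26, beside 39.0% of 9504 genes. The transcription factor Tcf4 was in 46 of 48 core cells at 1278 CPM, but also at 240 to 747 CPM in the other 4 types. Bcl11a, a factor that acts with Tcf4, was in 37 cells (479 CPM), Runx2, which controls release from the bone marrow, in 34 (286 CPM), and Spib, an Ets family factor, in 27 (228 CPM). Id2, the inhibitor that opposes Tcf4 in conventional dendritic cells, was in 3 cells and Batf3 in none. Another Id gene, Id3, was at 96.5 CPM in core cells of cisplatin mouse 1. It was at 81.8 CPM in B cells and 16.1 to 57.6 in the other types there.

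Outside the selection genes, the 25 genes with the highest ratio of the level in core cells to the highest level of the other 4 types (10 CPM added to both, means of cisplatin mice 1 and 4) were led by Cd209d, Klk1, Ccr9, Cd209a, Smim5 and Upb1. Of the 25, 11 were among the 26 markers, and 19 were also among the 25 of cisplatin mouse 1 alone, which lacked St8sia4, Dntt, Plac8, Amica1, Rell1 and Gm5547. In that mouse the order differed, with Klk1 at rank 6 and Upb1 at rank 15. Cd209d, a C-type lectin of the DC-SIGN family, was found in 42 of 48 core cells and had the highest ratio, 49.9 over both mice and 84.0 in cisplatin mouse 1, where it was at 893 CPM in core cells, 0 in B cells and 0.315 in macrophages. Over the core cells it was at 2866, 1011, 2747, 0 and 318 CPM in vehicle mice 1 to 5 and at 893, 1823, 345, 1263 and 1386 in cisplatin mice 1, 3, 4, 5 and 6. Several of these levels rest on 1 cell: the 0 of vehicle mouse 4 is its 1 core cell, while its other selected cell had 9 UMIs of Cd209d, and cisplatin mouse 4 was at 572 CPM without its deepest core cell. Cd209a, a lectin often used to mark conventional dendritic cells, was in 24 core cells. It was in 6 of 9 cells of vehicle mouse 3 (871 CPM) and in 6 of 18 cells of cisplatin mouse 1 (253 CPM). Whether the cells with Cd209a form a separate state was not tested.

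Several of these genes were present in some pDCs and absent from others at this depth. Klk1, a kallikrein protease, was in 17 of 48 core cells with up to 9 UMIs per cell, and in at most 0.257% of the cells of any other type. Klk1b27, its neighbor in the kallikrein family, was in 18 cells, and reads of such near-identical genes cannot always be told apart by the authors' counting. Dntt, the terminal transferase of lymphoid precursors, was in 19 cells, Flt3, the growth factor receptor of dendritic cell precursors, in 24, and Lefty1, a TGF-beta family member, in 28. St8sia4, a polysialyltransferase, was in 47 cells at 883 CPM and Rnase6, a secreted ribonuclease, in 45 at 1138 CPM. The median depth of the comparison cells lay between 1708 and 4543.5 UMIs per mouse for B cells and between 6383 and 36133 for tumor cells, so the low shares in tumor cells came from deeper cells than the pDCs.

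The remaining genes of the 25 were Scimp, D13Ertd608e, Klra17, Nucb2, Plac8, Sh3bgr, Atp2a1, Amica1, Rell1, Paqr5, Gm5547, Ly6c2 and Runx2. Plac8 was the most abundant of all 25, at 2205 CPM in 46 core cells, and it was also found in 35.9% of B cells. Ly6c2, which marks a subset of pDCs, was at 2063 CPM in cisplatin mouse 1 and at 318 to 1686 in the other 9 mice with core cells. Taken over all 63 selected cells, 22 of the 25 genes were shared with the list over core cells. Those that entered were Sst, Gm12253 and Spns3. Of the 75 UMIs of Sst, the hormone somatostatin, 65 came from 2 cells of cisplatin mouse 4 outside the core.

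**Figure D4:**
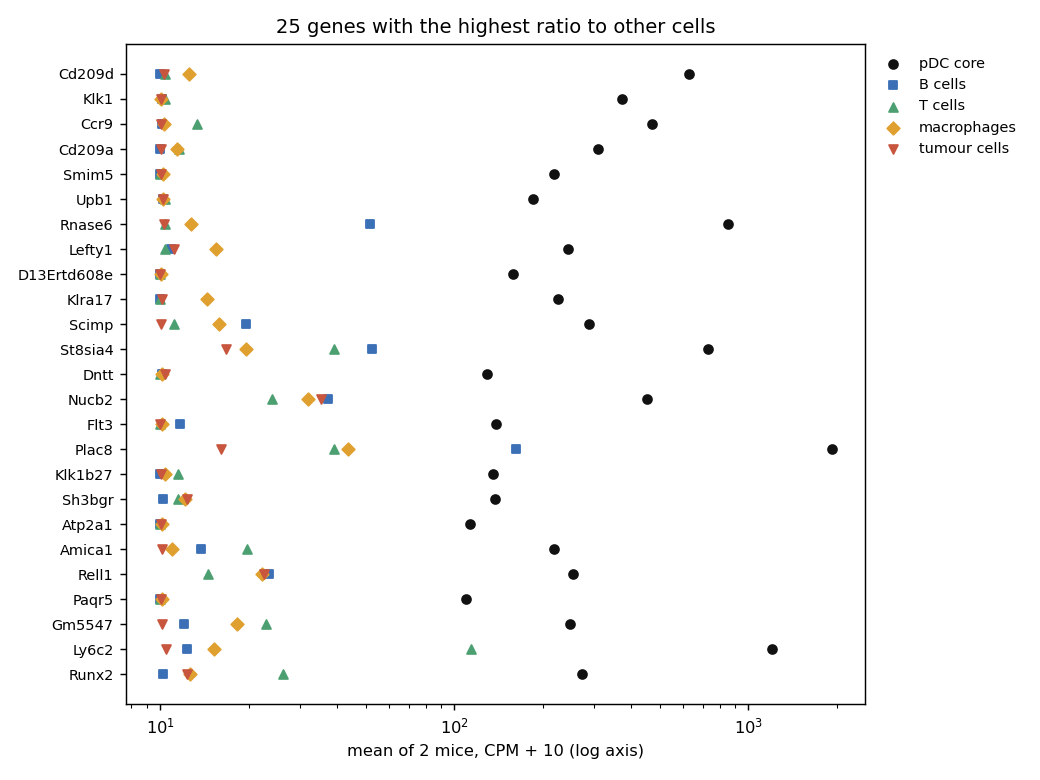
The 25 genes with the highest ratio in core cells of the 2 mice with at least 10 selected cells (rows, in order of ratio), with the mean level of both mice in core cells and in 4 other cell types (x axis, CPM + 10, log axis). Black points are core cells, and the means include the comparison cells of cisplatin mouse 4. Plac8 (1915 CPM) is the highest, and the other types lie near 10 for most genes.

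The endosomal sensing machinery was present while its transcripts varied. Pld4, a nuclease that limits TLR9 ligands, was in 45 core cells (672 CPM) and Unc93b1, which carries the TLRs to endosomes, in 42 (571 CPM). Irf7, the factor that drives interferon transcription, was in 26 cells (184 CPM), Slc15a4, a lysosomal transporter needed for TLR signaling, in 17 and Tlr7 in 16. Tlr9 was seen in 1 cell. Of the 19 genes listed for nucleic acid sensing, 17 were detected. In cisplatin mouse 1, 12 were higher in core cells than in each of the 4 other types, beside 42.5% of all genes detected there.

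No interferon transcript was found in any of the 63 cells. The 16 interferon genes listed (12 of the Ifna family, Ifnab, Ifnb1, Ifnl2 and Ifnl3) had 0 UMIs among the 227664 of the core cells, which allows a summed level of up to 13.2 CPM, and 11 UMIs among all 73170 kept cells. The chemokine Ccl4, which recruits lymphocytes, was the one abundant product of the list, in 13 core cells with 107 UMIs, of which up to 29 lay in 1 cell. It was at 1433 and 1832 CPM in vehicle mice 1 and 2 and at 1823 in cisplatin mouse 3, and at 0 to 335 in the other 7 mice with core cells. Il12a was in 4 cells, and Tnf and Il18 in 1 each.

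Genes induced by interferon differed in how often they were detected. Ly6e was in 47 core cells (1577 CPM), Ly6a in 29 (760 CPM), Ifi27l2a in 20 (742 CPM) and Samhd1 in 24 (141 CPM). In contrast, 13 of the 33 genes listed were not detected, among them Ifit1, Ifit2, Ifit3, Mx1, Oas1a, Oas2, Rtp4 and Oasl2, and Isg15 was in 2 cells. A count of 0 over the core cells allows a level of up to 13.2 CPM per gene. In macrophages of cisplatin mouse 1 the genes named as not detected ranged from 6.88 (Oas2) to 42.5 CPM (Rtp4). For a gene near that limit in other cells, 0 UMIs does not show a difference. The summed level was 3344, 4422, 2781, 4335 and 4765 CPM in vehicle mice 1 to 5 and 5115, 4558, 1487, 1894 and 3204 in cisplatin mice 1, 3, 4, 5 and 6. The groups overlapped, with the lowest and the highest value both in the cisplatin-treated mice. The value of cisplatin mouse 4 was 2217 without its deepest core cell.

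Antigen presentation genes were abundant, and few transcripts of co-stimulatory genes were found. The MHC class II list of 13 genes summed to 14429 CPM in core cells, led by Cd74, the invariant chain, in 47 of 48 cells (6870 CPM), and H2-Aa in 37 (1717 CPM) and H2-Ab1 in 39 (1603 CPM). B cells had a higher level of these transcripts than the core cells of the same mouse in 3 of the 4 mice with at least 5 selected cells. The list summed to 16967 CPM in B cells against 15428 in core cells of cisplatin mouse 1, to 18060 against 13048 in cisplatin mouse 3, and to 22651 against 18931 in vehicle mouse 3. In cisplatin mouse 4 it was 5587 in the B cells described above, against 11849. The level in core cells was 6090, 12572, 18931, 5540 and 27795 CPM in vehicle mice 1 to 5 and 11849 to 15428 in the cisplatin-treated mice, within the range of the vehicle-treated mice. The class I list was led by H2-D1 (1704 CPM), H2-K1 (1265 CPM) and B2m (1168 CPM). Cd80 and Cd40 were at 0, Cd86 was in 2 cells and Ccr7, the receptor by which mature dendritic cells reach lymph nodes, was at 0. A count of 0 over the core cells allows up to 13.2 CPM per gene. Macrophages had 3.03 CPM of Cd80 and 8.64 of Cd40, and B cells 1.04 and 25.3. For Cd80, and for Cd40 against macrophages, 0 UMIs therefore does not show a difference. The exception in the list of 16 genes was Lag3, an inhibitory receptor that binds MHC class II, in 26 core cells at 242 CPM, against 0.782 to 23.5 CPM in the other types.

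The secretory machinery was expressed throughout. Of the 25 genes listed, 18 were in at least 50% of the core cells, led by Hsp90b1, an endoplasmic reticulum chaperone (1168 CPM), Sec61g (1094 CPM) and Sec61b (1006 CPM), subunits of the translocon. Xbp1, the factor of the plasma cell secretory program, was in 33 cells and Mzb1, a chaperone of B cells and plasma cells, in 26. In cisplatin mouse 1 Mzb1 was at 205 CPM in core cells and 333 in B cells. Jchain was at 0, against 395 CPM in B cells, and Sdc1 was in 2 core cells. Lysosomal genes were of the same order, with Psap (2042 CPM), the protease inhibitor Cst3 (1871 CPM) and the cathepsins Ctsb (1700 CPM), Ctsh (1511 CPM) and Ctsl (1432 CPM). Their level was not highest in pDCs. In cisplatin mouse 1 the list of 18 granule protease and lysosomal genes summed to 15657 CPM in core cells, 2050 in B cells and 24942 in macrophages. There 5 of the 18 were higher in core cells than in B cells, T cells, macrophages and tumor cells alike, beside 42.5% of all genes detected. Granzyme B (Gzmb), which human pDCs make, was at 0.

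Surface receptors and their signaling adaptors summed to 18308 CPM over 22 genes, and to 12980 CPM over the 20 that remain without the selection genes Siglech and Bst2. Of these 20, 17 were higher in core cells than in each of the other 4 types in cisplatin mouse 1, beside 42.5% of all genes detected there. Tyrobp (DAP12), the adaptor through which Siglech signals, was in 47 core cells at 4775 CPM, and Fcer1g, a second adaptor, was in 45 at 1182 CPM. Both were also abundant in macrophages, at 3269 and 3162 CPM. Of the receptors for migration, Ccr9, which guides pDCs to the gut and thymus, was in 40 cells (633 CPM) and Ccr2 in 25, while S1pr1 was at 0 and Cxcr4 was in 6. Il7r, the interleukin 7 receptor of lymphoid precursors, was in 38 core cells at 681 CPM, against 329 CPM in T cells. Blnk, an adaptor of the B cell receptor, was in 27 and Ptcra, the pre-T cell receptor chain that is a pDC gene in humans, in 4.

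Cd79a, Cd3e and the C1q genes were limited by the selection, so their low counts are no result. The other listed markers of B cells, T and NK cells, macrophages and fibroblasts were at or near 0 in the core cells, whereas markers of conventional dendritic cells were present. Over the 7 B cell markers 2 were detected, with 5 UMIs in all, and Ms4a1, Pax5 and Fcmr were among those at 0. The 6 T and NK cell markers had 1 UMI, and the 4 fibroblast markers none. Some T cell genes outside that list were present in core cells of cisplatin mouse 1. There Cd8a was at 398 CPM, Cd7 at 1001 and Cd4 at 48.3, against 107, 74.1 and 43.4 in T cells. Of the macrophage markers that the selection did not use, Adgre1, Csf1r and Mrc1 were at 0. The neutrophil genes S100a8 and S100a9 had 14 UMIs in the core, whereas the cells outside it had 243 and 259, of which 241 and 254 lay in the keratin-positive cell of cisplatin mouse 2. The 5 markers of type 2 conventional dendritic cells were all detected, with 242 UMIs (1063 CPM). Clec10a was in 34 core cells (294 CPM), Itgax in 22 (163 CPM) and Clec9a, a marker of type 1 cells, in 16, and Xcr1 was at 0. The 5 monocyte markers, led by Ccr2, had 46 UMIs (202 CPM), and the 3 endothelial markers, led by Pecam1, had 24 (105 CPM). The transitional dendritic cell markers Axl and Zbtb46 were at 0 and Cx3cr1 was in 1 cell.

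Proliferation genes were low in the core cells. Mki67 was in 2 of 48 core cells and Top2a in 6, against 9 and 10 of the other 15 cells, and the cell cycle list of 20 genes summed to 1770 CPM in core cells and 9864 CPM in the others. Most of the others were set apart by their tumor RNA, so this contrast is no result. In cisplatin mouse 1 the list summed to 1098 CPM in core cells, 5985 in B cells and 4509 in macrophages. In vehicle mouse 3 it summed to 1072, 5037 and 3943 CPM. These B cells and macrophages also held more tumor RNA than the core cells. The tumor markers were at 2738 and 1498 CPM in cisplatin mouse 1, against 217 in core cells. In vehicle mouse 3 they were at 2102 and 936, against 235. How much of the cell cycle level of B cells and macrophages came with tumor RNA was not tested. Within the core, cisplatin mouse 4 had the highest value, 4395 CPM, of which Stmn1, which tumor cells of cisplatin mouse 1 express at 3551 CPM, gave 1917. Without its deepest core cell these were 3575 and 1216 CPM. The 30 p53 targets summed to 1010 CPM over all core cells and to 1275 in the other 15 cells, and in cisplatin mouse 1 to 881 in core cells, 847 in B cells and 1439 in macrophages. In vehicle mouse 3 they were at 1206 in core cells, 697 in B cells and 1054 in macrophages. By mouse, they summed to 239, 1390, 1206, 723 and 1271 CPM in vehicle mice 1 to 5 and to 881, 1709, 948, 421 and 866 CPM in cisplatin mice 1, 3, 4, 5 and 6. The groups overlapped. Cdkn1a (p21), which arrests the cycle after DNA damage, was in 6 core cells, 3 of them in cisplatin mouse 4 (237 CPM, and 71.5 CPM without its deepest core cell) and 1 in vehicle mouse 4. In cisplatin mouse 1 core cells had 12.1 CPM, tumor cells 74.0 and macrophages 260.1. Btg2, another p53 target that is also an immediate early gene, was in 35 cells at 378 CPM. The immediate early and stress list was at 9434 and 9689 CPM in vehicle mice 1 and 5 and 8832 in cisplatin mouse 3, and at 2104 to 4864 in the other 7 mice, with Jun at 1481 and Hspa1a at 1595 CPM in cisplatin mouse 3.

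**Figure D5:**
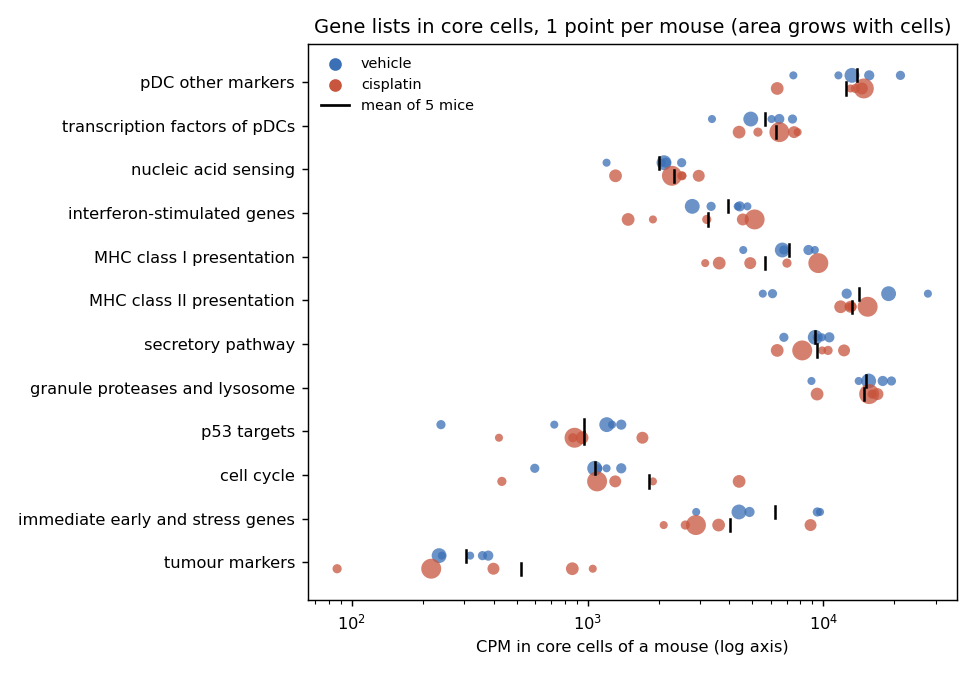
Summed level of 12 gene lists (rows) in the core cells of each mouse (x axis, CPM, log axis), blue for vehicle and red for cisplatin, with larger points for mice with more core cells. Black lines are the means of 5 mice. The groups overlap in all 12 lists. The transcription factor list includes the selection gene Irf8.

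The second comparison asked which genes of pDCs differed between cisplatin-treated and vehicle-treated mice. At least 10 selected cells were found in 2 mice, cisplatin mice 1 and 4, so the comparison planned for such mice could not be fitted, and the sums of all 11 mice were used, most of them from 1 to 3 cells. Of 193 genes with enough UMIs, 0 (0%) had an adjusted p under 0.05 in edgeR's quasi-likelihood test with Benjamini-Hochberg adjustment. An unadjusted p under 0.05 was found for 7, and DESeq2 called 0, with 10 at an unadjusted p under 0.05. Over core cells, with 5 mice per group, 0 of 188 genes (0%) were called and 7 had an unadjusted p under 0.05. The 63 cells had 12014 detected genes, most of them with too few UMIs to test.

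The 5 selection genes were among the 193 and the 188 genes tested, but their tests are no result, since the cells were chosen on their counts. In core cells the 7 further markers tested had a median log2 fold change (cisplatin over vehicle) of -0.32, beside -0.02 over the 188 genes tested, and 0 of them were called. None of the 6 MHC class II genes tested was called (median 0.04), nor of the 4 class I genes (median -0.27) or the 10 lysosomal genes (median -0.01). Over all selected cells the medians were lower, at -0.57 for the further markers, -0.20 for class II, -0.61 for class I and -0.33 for the lysosomal genes, beside -0.02 over the 193 genes tested, with 0 called in each.

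The 10 genes with the smallest p over all selected cells, none of which passed, included Cyba, Atp5e, Tmsb10, Actb, Rpl38, Atp1b1, Rpl8, H3f3a and Rps29. Cyba, a subunit of the NADPH oxidase, had a log2 fold change of -1.51 ± 0.57 (SE, edgeR adjusted p = 0.871). The SE here was derived from the fold change and the F statistic of the test. It was at 836, 1643, 1106, 703 and 3177 CPM in vehicle mice 1 to 5, and at 676, 74.5, 684, 150, 631 and 779 CPM in cisplatin mice 1 to 6. The highest level with cisplatin lay above the lowest with vehicle, so the groups overlapped. Atp1b1, a subunit of the sodium pump and one of the 26 markers, had -1.22 ± 0.55 (adjusted p = 0.871), with 0 CPM in the keratin-positive cell of cisplatin mouse 2. Over core cells Cyba and Atp1b1 had an adjusted p of 0.929 in edgeR.

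Whether the response to cisplatin differed between pDCs and B cells was tested as an interaction in the same mice. Of 699 genes tested, 0 were called in edgeR, and 14 had an unadjusted p under 0.05. Over core cells 0 of 657 were called, with 20 at an unadjusted p under 0.05. Set against macrophages, 4 of 5232 genes were called, and these were named after their values were seen. Of the 4, Ly6d was a selection gene, and its call is no result. Apoe, Hoxa7 and Lyz2 had a higher cisplatin effect in the selected cells, the 15 outside the core included, than in macrophages. Such a call does not by itself show a rise in the selected cells. Of the 11 Hoxa7 UMIs, 5 came from vehicle-treated mice, which held 70298 of the 333508 UMIs of the selected cells. Lyz2, the macrophage lysozyme, had 20 UMIs over all selected cells, 15 of them outside the core, and Hoxa7 had 11, so both calls rest on few counts. Apoe had 153 UMIs over 7 mice, 92 of them in the core. It was called neither over core cells nor without cisplatin mouse 4. Over core cells 2 of 6588 genes were called, Hoxa7 and Phgdh, an enzyme of serine synthesis, with 10 and 13 UMIs in the core. Without cisplatin mouse 4, whose macrophages carried few macrophage markers, 1 of 4583 genes was called, Hoxa7.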

How the data were processed

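The authors deposited counts, 1 matrix of UMIs per gene and barcode for each of 11 libraries, not normalized, made with Cell Ranger on mm10 (version 4.0 in the submitters' processing notes, 3.1.0 in the headers of 2 vehicle mice, 4.0.0 in the other 9). Of 93344 barcodes, 73170 passed limits of 500 genes, 1000 UMIs and 10% mitochondrial UMIs. No doublet caller was run. The cells were selected by the counts given in the report, and the selection, the 33 gene lists and the tests were chosen with earlier results of these data known. B cells (1789), T cells (777), macrophages (4669) and tumor cells (41982), used for comparison, were selected likewise on Cd79a, the Cd3 genes, the C1q genes and, with Ptprc at 0, at least 10 tumor marker UMIs, all with Siglech at 0. Those of cisplatin mouse 4, which include 1631 of the macrophages, held few of their own markers, so levels in other cell types come from cisplatin mouse 1 unless stated. The B cells, T cells and macrophages of cisplatin mouse 1 also held tumor RNA, since their selection set no limit on it. Mice are the replicates. Shares were compared by exact permutation (scipy 1.17.1) and UMI sums per mouse with edgeR 4.0.16 (TMM, filterByExpr, quasi-likelihood test, R 4.3.3), with DESeq2 1.42.0 as an alternative, after a test on simulated data. Fits over all 11 mice took the place of fits over mice with at least 10 selected cells after the numbers of cells were seen. The genes named are the selection genes, up to 6 genes per list with the highest mean CPM (further members, and list members at 0, were named after their values were seen), the 25 with the highest ratio to other cells and the 10 with the smallest p. Some genes that this rule or the lists hold are not reported here by name. Gene positions came from GENCODE vM21. The alternatives were the limits, depth, denominator, software version, control label, tool, gene filter and each mouse left out. Intervals cover counting error only.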

Additional observations from a re-analysis of the deposited data

Results flagged for a closer look

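In groups of this size, chance sets 1 mouse apart in about 1 of 20 groups by the measure used here, the gap to the nearest mouse over the whole range. Vehicle mouse 3 stood apart from the other 4 vehicle-treated mice in its share of selected cells, 0.272%, which is the same over core cells (0.272%), and in the share of selected cells among cells with a Ptprc UMI, 3.91%. Its library was 1 of the 2 of software version 3.1.0. Among the cisplatin-treated mice, mouse 1 stood apart in its share of core cells, 0.244%, beside 0.0361% in mouse 4, whose share over all selected cells was 0.114%. Cisplatin mouse 2 stood apart in the median depth of its selected cells, 13420 UMIs, from the 1 cell with keratin transcripts.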

How the results depend on the processing

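The difference in share, 0.0118 percentage points, changed sign under several choices, and its exact permutation p stayed above 0.05 under all. It was -0.860 among cells with a Ptprc UMI, -0.00864 with at least 3 Siglech UMIs, -0.0102 with Cd79a, Cd3e and the C1q genes at 0, and -0.0145 against control mice labelled vehicle alone. With the core cells it was -0.0104, and -0.837 when these were counted among cells with a Ptprc UMI, both chosen after seeing the data. Without 1 mouse it ranged from -0.0188 (without cisplatin mouse 1) to 0.0600 (without vehicle mouse 3) and was below 0 in 3 of 11 cases. The cause was not tested. The numbers of called genes, 0 in both fits, stayed at 0 with each mouse left out. Without a gene filter, 32 genes were called in the UMI sums, 31 higher and 1 lower, led by Hbb-bs, S100a9 and S100a8, with 4 hemoglobin and 5 keratin genes among them, and 6 in core cells (4 hemoglobin genes, Tubb2a and Xist). The keratin genes were each detected in 1 mouse, with 0 UMIs in the core. Of their 254 and 262 UMIs, S100a8 and S100a9 had 11 and 3 in the core. Xist, the 1 lower gene, had 21 UMIs, all from 2 vehicle mice. With at least 5 selected cells per mouse (3 cisplatin, 1 vehicle, assumed to vary like the others), 1 was called, the hemoglobin gene Hbb-bs. Macrophages in place of B cells gave 4, 2 over core cells and 1 without cisplatin mouse 4, the latter 2 chosen after seeing the data. Fits over mice with at least 10 or 20 cells could not be made, since too few mice had them. The labels tie no mice together by replicate number, so the numbers were not taken as a pairing. The deviations of same-numbered mice correlated at 0.000307 to 0.385, above 0.1 in 3 of 5 pairs. Without the values of differently numbered mice, these correlations cannot decide whether mice were paired. With a replicate block the difference in share was 0.0223 (p = 0.75, exact permutation) and 0 of 312 genes were called.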

Other observations

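Siglech was also detected in cells that the selection left out. At least 1 Siglech UMI was found in 168 of 16630 kept cells of cisplatin mouse 4 (1.01%) and in 10 of 1421 of cisplatin mouse 2 (0.704%), against 0.0174% to 0.393% in the other 9 mice. At least 2 UMIs were found in 35 and 8 of these cells, of which 19 and 1 were selected.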
